A study of Mus musculus with 3 samples.

Results

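miR-142-5p, miR-142-3p and miR-223 are 3 miRNAs of blood cells, taken by their names mmu-miR-142-5p, mmu-miR-142-3p and mmu-miR-223 from the 568 mouse miRNA names of the array. Each of them has 1 of the 579 mouse probes, and the other arm of miR-223 has none. RNA came from dendritic cells that had been grown from mouse bone marrow (BMDCs) and present antigen to T cells, and it was read on 3 single-colour arrays, 1 per group. The control group was BMDCs for which no tumour cells are named, and how or how long it was cultured is not given. The ID8 group was BMDCs kept for 24 h in a transwell plate, in medium with 3% fetal calf serum, with the ovarian tumour line ID8 of the mouse on the other side. The CT-26 group was BMDCs kept in the same way with the mouse colon carcinoma line CT-26. The strain, sex, age and number of the animals are not given in the sources used here. With 1 array per group there is no replicate spread, so no test was run, no SD or SE exists, and a ratio compares 2 arrays. The ratios of both co-cultures to the control share the control array. In cultures taken as a whole, fewer cells of a type and less RNA per cell cannot be told apart.

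A miRNA is cut from a hairpin precursor, and either arm of the hairpin can be loaded into the silencing complex, where bases 2 to 8, the seed, pair with target messenger RNAs. miR-142 is made in blood cells of all lineages, yields stable products from both arms and is needed for normal dendritic cell development in mice. miR-223 is made mainly in granulocytes, monocytes and macrophages under control of the transcription factors PU.1 and C/EBP, and restrains inflammatory responses, among them through the inflammasome sensor Nlrp3.

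The mature sequences below are from RefSeq on build GRCm38.p6 and show that the members share neither a seed nor a precursor, apart from the arms of miR-142. They run 5′ to 3′ with the seed in capitals. The table's older names were matched to the entries mmu-miR-142a-5p, mmu-miR-142a-3p and mmu-miR-223-3p.
miR-142-5p: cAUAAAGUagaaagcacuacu
miR-142-3p: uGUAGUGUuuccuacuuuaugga
miR-223: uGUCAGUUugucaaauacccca

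The hairpin of Mir142 lies on the plus strand at chr11:87756864-87756927, between the protein-coding genes Tspoap1 and Supt4a. It is shown because both of its arms were measured separately, and the capitals mark miR-142-5p and then miR-142-3p.
Mir142: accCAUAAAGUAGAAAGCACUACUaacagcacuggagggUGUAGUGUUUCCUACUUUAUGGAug
The hairpin of Mir223 lies on the plus strand at chrX:96242817-96242926, inside the long non-coding RNA gene F630028O10Rik and next to Vsig4. Its capitals mark miR-223, the only arm with a probe.
Mir223: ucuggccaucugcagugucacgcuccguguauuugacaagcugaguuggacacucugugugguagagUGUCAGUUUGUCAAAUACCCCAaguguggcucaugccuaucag

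RefSeq also holds a miRNA on the opposite strand of Mir142, named miR-142b, which has no probe under that name.
miR-142b: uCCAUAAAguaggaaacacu
It shares a run of 10 bases with miR-142-5p, against 4 with miR-142-3p. Whether it adds signal to the miR-142-5p probe was not tested. Of the 568 mouse names on the array, 485 were matched to a RefSeq sequence, counting either arm where the older name gives none. Of the matched names other than the members, 0 share a seed with any member, and the longest run that any of them shares with a member is 8 bases. The arms of miR-142 share 5 bases with each other as their longest run.

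Intensities are in scanner units after subtraction of the local background (corrected), and normalized intensities are those divided by the authors' constant for the array. A probe counted as measured at a corrected intensity of at least 50, a floor reached by 175 mouse probes of the control array, 192 of the ID8 array and 178 of the CT-26 array. The brightest of 21 empty spots read 6, 1.75 and 2.25 units on those arrays. Position on the array went with the ratios. The probes lie in 8 array rows, and in array row 7 all 19 measured mouse probes had a log2 ratio of CT-26 over control below 0, with a median of -0.78, whereas the medians of the other rows lay between -0.01 and 0.34. In the same row 16 of 22 mouse probes were below 0 for ID8 over control, with a median of -0.16. The medians of the other rows lay between -0.11 and 0.23 there, so row 7 stood apart by less than for CT-26. Probes of row 7 without a name had a median of -0.02 for ID8 over control, with 15 of 28 below 0. miR-142-3p is in array row 7, miR-142-5p in array row 8 and miR-223 in array row 5. The dye marker spots were nearly identical on the control and ID8 arrays, unlike the mouse probes. On 40 Hy3 spots the raw intensity of the ID8 array exceeded that of the control array by 1.75 to 4.75 units, on spots that read 3029.75 to 5815 on the ID8 array. The SD of their log2 raw ratio was 0.000231 for ID8 over control and 0.153 for CT-26 over control, against 0.457 and 0.693 for measured mouse probes. The cause of either pattern was not tested, and neither was what the marker spots mean for the ratios of ID8 over control.

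**Figure D1:**
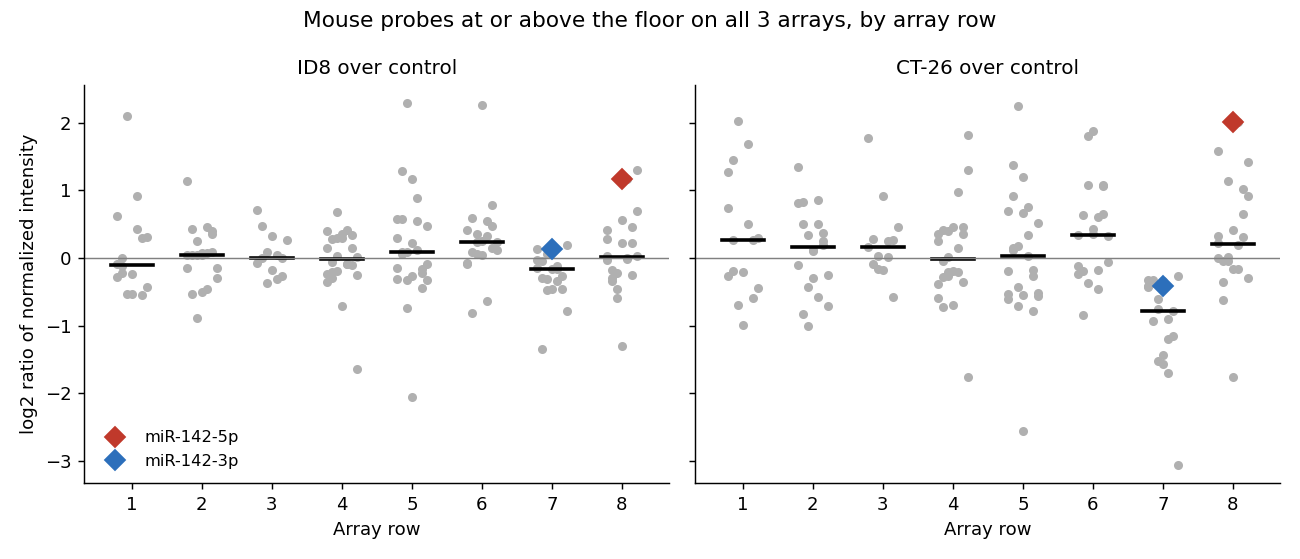
Log2 ratio of normalized intensity (vertical axis) against the array row of the probe (horizontal axis), for mouse probes at or above the floor on all 3 arrays. Grey points are probes, black bars row medians and diamonds the arms of miR-142; for CT-26 over control all 19 probes of row 7, miR-142-3p among them, lie below 0.

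miR-142-5p, the arm whose signal differed most between the arrays, was higher beside both tumour lines. Its corrected intensity was 181.5 units in control BMDCs, 501.25 beside ID8 cells and 752.25 beside CT-26 cells. Its normalized intensity was 0.558, 1.26 and 2.24 in the same order. The control array thus read lowest and the CT-26 array highest on either scale, and the raw signal stood 3.99, 11 and 16.4 times over the local background of the spot. The ratio to control was 2.25-fold beside ID8 cells and 4.02-fold beside CT-26 cells. Between the co-cultures the level was 1.78-fold higher beside CT-26 cells.

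**Figure D2:**
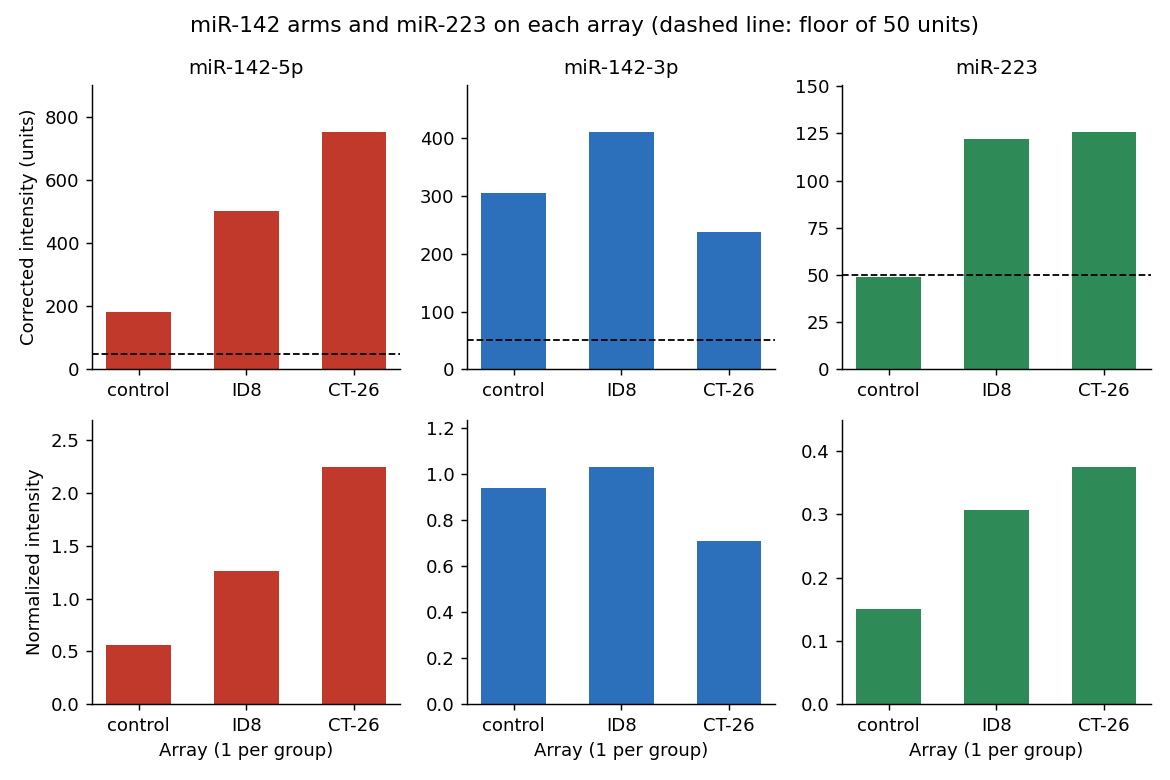
Corrected intensity in units (upper panels) and normalized intensity (lower panels) for miR-142-5p, miR-142-3p and miR-223, with 1 bar for each array. miR-142-5p is lowest on the control array and highest on the CT-26 array, miR-142-3p is highest on the ID8 array, and miR-223 is just under the floor on the control array at 49 units.

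Read against all measured miRNAs, miR-142-5p was rank 6 from the top of 165 for ID8 over control and rank 3 of 158 for CT-26 over control. It was 1 of 8 miRNAs at least 2-fold higher beside ID8 cells, where 4.85% of measured miRNAs were that much higher. Beside CT-26 cells it was 1 of 21, or 13.3% of those measured. The median log2 ratio over all measured miRNAs was 0.02 and 0.01 in these comparisons. For ID8 over CT-26 the log2 ratio of miR-142-5p was -0.83, rank 14 from the bottom of 175, and it was not among the 6.29% at least 2-fold lower. Relative to the median of its array row, the log2 ratios to control were 1.16 and 1.80.

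miR-142-3p, the arm cut from the other side of the same hairpin and known in dendritic cells as a regulator of Il6, did not share this pattern. Its corrected intensity was 305 units in control BMDCs, 409.5 beside ID8 cells and 236.75 beside CT-26 cells, and its normalized intensity was 0.938, 1.03 and 0.706. The ID8 array read highest and the CT-26 array lowest on both scales, and all 3 readings were well over the floor. The log2 ratio was 0.13 for ID8 over control, rank 61 of 165. It was -0.41 for CT-26 over control, rank 40 from the bottom of 158, which as a fold is 1.33-fold lower. Between the co-cultures it was 1.46-fold higher beside ID8 cells. None of these reached 2-fold, a mark passed on the higher side by 2.29% of the 175 miRNAs measured in both co-cultures.

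The sign of the CT-26 value was not the same once the array row was taken as the reference. Relative to the median of array row 7, the log2 ratio of miR-142-3p for CT-26 over control was 0.37, that for ID8 over control 0.30 and that for ID8 over CT-26 0.03. On that scale miR-142-3p was above 0 beside both tumour lines and nearly equal between them. The ID8 over control value changed sign with the scaling of the arrays as well, and was below 0 in 4 of 10 other normalizations and background corrections.

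Whether both arms of the hairpin moved together was asked by subtracting their log2 ratios, a difference in which any factor that applies to a whole array cancels. The log2 ratio of miR-142-5p exceeded that of miR-142-3p by 1.04 for ID8 over control and by 2.42 for CT-26 over control, a 2.06-fold and a 5.34-fold gap. For ID8 over CT-26 it was lower by a log2 difference of 1.38 in size, a 2.60-fold gap. The array held 160 mouse precursors with a probe for each arm, and both arms were measured for 21, 21 and 22 of them in the 3 comparisons. The median size of the gap over those precursors was 0.42, 0.80 and 0.55, so unequal arms were common on these arrays.

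Among the 21 precursors, the gap of miR-142 was the fifth in size for ID8 over control, after miR-22, miR-21, let-7d and miR-503, whose main strands exceeded their star strands by 1.82, 1.82, 1.67 and 1.07. For CT-26 over control it was the largest of 21, ahead of miR-22 at 1.96. For ID8 over CT-26 it was rank 2 of 22, after miR-574. The arms of miR-142 lie in different array rows. When every log2 ratio was first centred on the median of its array row, the gap was 0.86 (rank 6 of 21), 1.43 (rank 6 of 21) and -0.67 (rank 9 of 22), in the same order of comparisons. The sign of the gap was thus the same with and without centring, and about 1 log2 unit of the CT-26 value went with array row. The change of background correction, quantile normalization and cyclic loess left the gap between 0.86 and 1.03 for ID8 over control and between 2.07 and 2.42 for CT-26 over control.

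**Figure D3:**
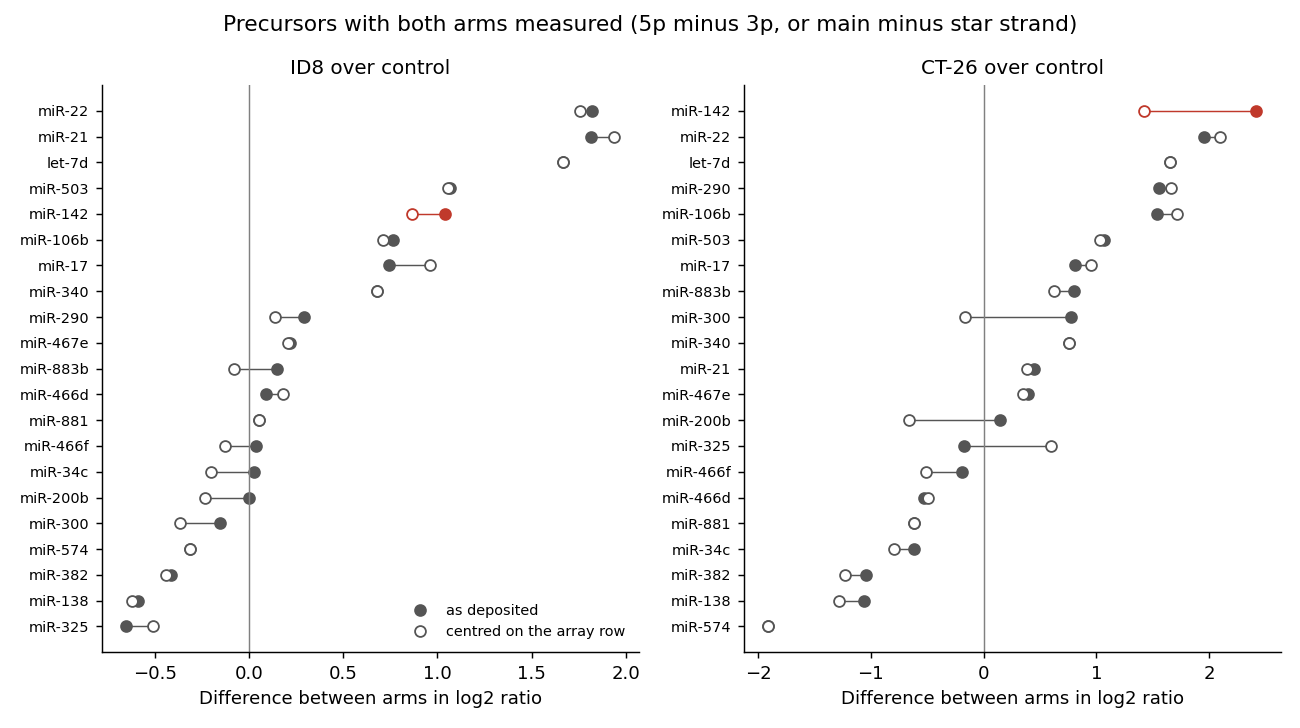
Difference between the log2 ratios of the arms of each precursor with both arms measured (horizontal axis), with the precursors listed on the vertical axis, for ID8 over control and CT-26 over control. Filled circles use the deposited normalized values, open circles values centred on the array row, and red marks miR-142, whose gap beside CT-26 cells goes from 2.42 to 1.43.

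miR-223 was also higher beside both tumour lines, from a dim control reading of 49 units, just under the floor. It read 122 units beside ID8 cells and 125.5 beside CT-26 cells. Its normalized intensity was 0.151, 0.306 and 0.374, so the control array was lowest and the co-cultures differed by little. The control reading was still far over the brightest empty spot of that array, at 6 units. Since the control reading is under the floor, the ratio is given as a bound against the lowest measured mouse value of that array. miR-223 was at least 1.98-fold higher beside ID8 cells and at least 2.42-fold higher beside CT-26 cells. The readings themselves, taken as they stand, differ by 2.03-fold and 2.48-fold.

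Bounds of at least 2-fold on the higher side were found for 4 of 34 miRNAs measured on a single array in ID8 over control (11.8%). In CT-26 over control they were found for 6 of 34 (17.6%). A higher bound needs the co-culture array over the floor and the control array under it, as for 25 and 18 of those miRNAs. The calls were thus 4 of 25 and 6 of 18 of the miRNAs that could give one. miR-223 passed the 2-fold mark beside CT-26 cells. Its ID8 bound falls short of 2-fold and its readings pass it, so that call depends on the floor. Between the co-cultures, both measured, the log2 ratio for ID8 over CT-26 was -0.29, rank 39 from the bottom of 175. Their corrected intensities were nearly equal, with a ratio of 0.972. Relative to the median of array row 5 the bounds were log2 0.92 and 1.25.

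How far these ratios rest on the scaling of the arrays was asked with 10 other normalizations and background corrections. The log2 ratio of miR-142-5p for ID8 over control ranged from -0.10 to 1.52 and was at or past 2-fold in 4 of the 10. For CT-26 over control it ranged from 0.94 to 2.28 and was at or past 2-fold in 9 of the 10. miR-142-3p for CT-26 over control was below 0 in all 10, from -1.48 to -0.13. The bound of miR-223 for ID8 over control ranged from -0.28 to 1.33, was at or past 2-fold in 2 of the 10 and below 0 in 1. For CT-26 over control it was above 0 in all 10, from 0.20 to 1.55, and at or past 2-fold in 5.

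The lowest values came from scaling to the small nuclear RNA probe U6-snRNA-2, which had log2 ratios of 1.27 and 1.07 to control and would put 1 miRNA higher and 117 lower beside ID8 cells, in place of 8 and 5. Beside CT-26 cells it would put 1 higher and 83 lower, in place of 21 and 11. The other probe for the same RNA, U6-snRNA-1, read 61.5, 116 and 36.5 units, and its log2 ratios to control were 0.62 and -0.80, so the U6 probes disagreed on the direction for CT-26. Scaling to SNORD3@, a small nucleolar RNA, gave 3 higher and 10 lower beside ID8 cells and 10 higher and 31 lower beside CT-26 cells. Relative to the median of all measured miRNAs under each scale, miR-142-5p stood between 0.98 and 1.15 for ID8 over control and at or above 1.73 for CT-26 over control. Any scaling by a constant cancels in this measure, so U6-snRNA-2 and SNORD3@ scaling could not change it. Only quantile normalization, cyclic loess and the background corrections could.

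**Figure D4:**
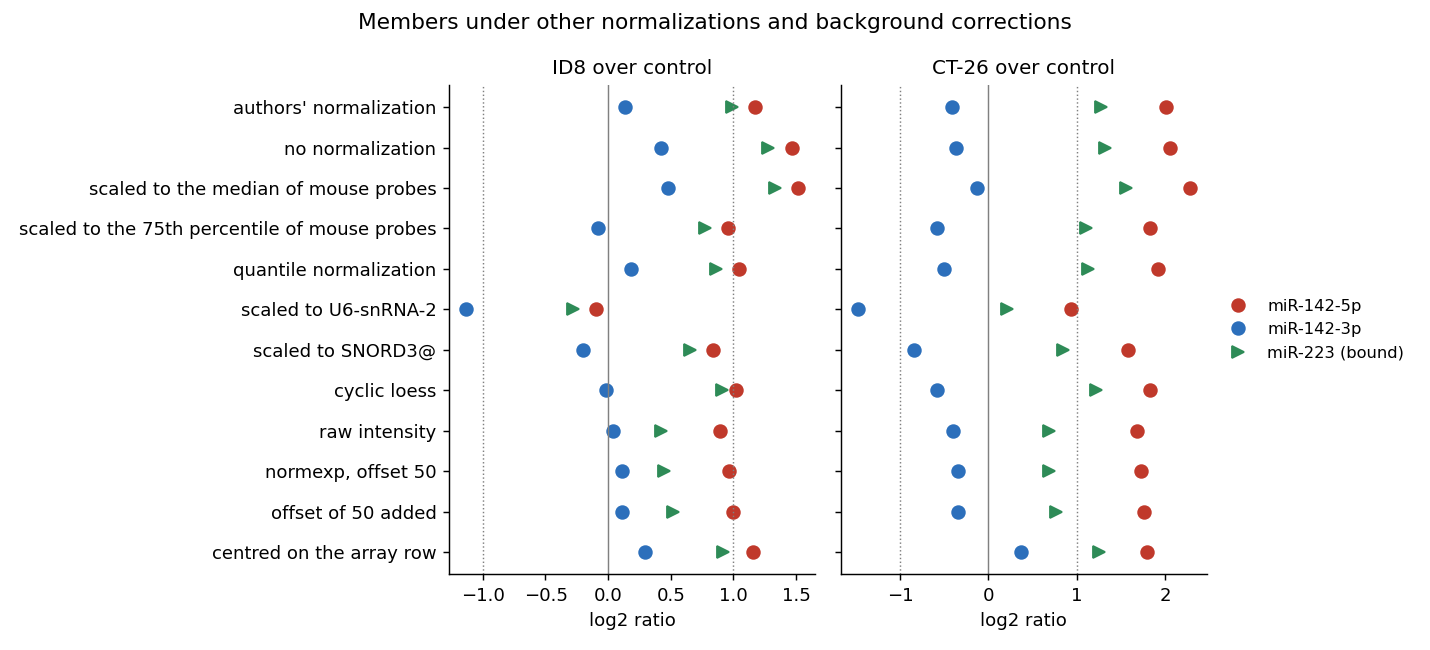
Log2 ratio (horizontal axis) of the 3 miRNAs in each comparison with the control array, under the authors' normalization, 10 other scalings or background corrections and centring on the array row. Triangles are lower bounds and dotted lines mark 2-fold; miR-142-5p lies to the right of miR-142-3p in every line of both panels.

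The members belong to a wider group of 12 miRNAs described as regulated by PU.1, the transcription factor of the myeloid lineage. Of these, 6 were measured on both arrays in ID8 over control, 3 of them at least 2-fold higher and 0 lower, with a median log2 ratio of 0.65 against 0.02 for all measured miRNAs, of which 4.85% were at least 2-fold higher and 3.03% lower. In CT-26 over control 5 were measured, 3 of them at least 2-fold higher and 0 lower, with a median of 1.87 against 0.01. There 13.3% of all measured miRNAs were at least 2-fold higher and 6.96% lower. These counts and medians include both arms of miR-142. Without the members, 2 of 4 measured were at least 2-fold higher in ID8 over control and 2 of 3 in CT-26 over control, with 0 lower in each. Apart from miR-142-5p, the listed miRNAs measured on all 3 arrays and past 2-fold in both were miR-22, abundant in myeloid cells, and miR-146a, which damps NF-kB signalling. miR-22 had log2 ratios of 2.29 and 2.24 and miR-146a of 2.26 and 1.87, although miR-146a read 54.25 units on the control array, near the floor. The list was drawn up with earlier results of these data known, so its direction is a description and not independent evidence.

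miR-155, which is induced by Toll-like receptor signalling, read 49.5, 258.5 and 201.5 units and, like miR-223, was under the floor on the control array only. Its bounds were past 2-fold in both comparisons, at least 4.20-fold higher beside ID8 cells and at least 3.89-fold higher beside CT-26 cells. miR-27a, from the miR-23a cluster that PU.1 activates, read 33.75, 100.75 and 118.5 units, with bounds of log2 0.71 and 1.19. Its neighbour miR-24 read 55.75, 58 and 46.25 units and did not reach 2-fold either way. miR-322, a mouse counterpart of the monocyte miRNA miR-424, had log2 ratios of -0.09 and -0.52. miR-23a, miR-338-3p and miR-342-3p stayed under the floor on all 3 arrays, at 22.5 units or less. For ID8 over CT-26, 8 of the 12 were measured, none reached 2-fold, and the median was 0.08, where 8.57% of all measured miRNAs were at least 2-fold apart.

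**Figure D5:**
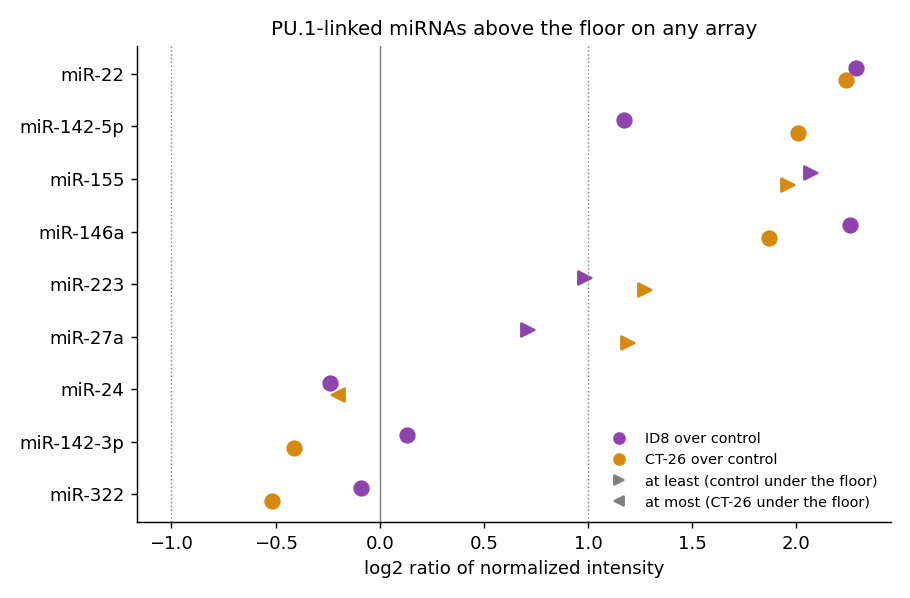
Log2 ratio of normalized intensity (horizontal axis) to the control array for the 9 PU.1-linked miRNAs above the floor on any array, beside ID8 cells (purple) and CT-26 cells (orange). Triangles are bounds, dotted lines mark 2-fold, and miR-142-5p, miR-22, miR-146a, miR-155, miR-223 and miR-27a lie right of 0 in both.

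A second list, of 19 miRNAs tied to monocyte and dendritic cell differentiation, holds none of the members. It is not separate from the PU.1-linked list, since miR-22, miR-146a, miR-155 and miR-322 are on both. It too was drawn up with earlier results of these data known, so its direction is a description and not independent evidence. It had 11 measured members in each comparison with the control, 5 of them at least 2-fold higher and 0 lower in each, with medians of 0.70 and 0.91. Over all measured miRNAs the medians were 0.02 and 0.01, with 4.85% and 13.3% at least 2-fold higher and 3.03% and 6.96% lower. Those at least 2-fold higher in both were miR-21, miR-22, miR-146a, miR-17 and miR-20a as ratios, and miR-155 and miR-146b as bounds, the latter at log2 1.04 and 1.01.

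The labelled cell type was set against the blood-cell miRNAs themselves and against markers of other cells the cultures could hold. Both arms of miR-142 were over the floor on all 3 arrays and miR-223 on the co-culture arrays. Of 5 lymphocyte miRNAs, 1 reached the floor, miR-150 at 64.25 units beside ID8 cells, and 0 did so on the other arrays. The summed corrected intensity of that list was 86.5, 94 and 69.5 units for control, ID8 and CT-26, and miR-181c was at or under 0 on every array. Of 3 erythroid and megakaryocyte miRNAs 1 reached the floor on each array, with sums of 138.5, 120.5 and 95 units. Its members parted: miR-451 read 33.25, 70 and 59.5 units and miR-144 6.75, 19.5 and 15.5, both lowest on the control array as miR-142-5p and miR-223 were, while miR-486 read 98.5, 31 and 20.

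Of 9 epithelial miRNAs, which a tumour line of epithelial origin could hold, 2 reached the floor on every array, miR-200b and miR-194, and their list summed to 231.75, 236.5 and 318 units. miR-194 accounts for the higher CT-26 sum, with 51.75, 53.25 and 187 units, while miR-141, miR-429, miR-200a and miR-205 read at most 7.75 units. Of 5 mesenchymal probes 1 reached the floor, miR-214, at 389.25, 374.5 and 314.75 units. The list summed to 411.5, 392.5 and 326.25 units. On the control array miR-214 read over both arms of miR-142 (181.5 units for 5p and 305 for 3p). It read under both beside ID8 cells (501.25 and 409.5), and between them beside CT-26 cells (752.25 and 236.75). The part of other cells in the signal of miR-142 and miR-223 was not tested.

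The miRNAs most like each member were found by the larger of their absolute differences from it in the log2 ratios of ID8 and CT-26 over control, among the 157 other miRNAs measured on all 3 arrays. The nearest to miR-142-5p were miR-652 (difference 0.32), miR-1 (0.46), miR-17 (0.59) and miR-20a (0.64). miR-652 had log2 ratios of 0.92 and 1.69. The nearest to miR-142-3p were miR-713 (0.07), miR-34c (0.07), miR-881 (0.12) and miR-185 (0.12). The probe of miR-713 lies in array row 7 too, but that of miR-34c lies in row 6, that of miR-881 in row 8 and those of miR-185 in rows 2 and 5. Another 16 miRNAs shared the pattern of miR-223, under the floor on the control array and over it on both co-culture arrays. The brightest of them were miR-155, let-7i, miR-674, miR-146b, miR-27a and miR-18a, with bounds between log2 0.56 and 2.07 beside ID8 cells and between 0.80 and 1.96 beside CT-26 cells.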

How the data were processed

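Total RNA was labelled with Hy3 using an Exiqon miRCURY kit and the arrays were read on a GenePix scanner, per the labels' protocols and the design text. The authors deposited raw, corrected and normalized intensity for 1408 probes, per the file headers. Deposited corrected over normalized intensity gave 325 for every control probe, 398.25 for ID8 and 335.25 for CT-26. The series matrix repeats the normalized values exactly. The column headed 1D8 was taken as the ID8 sample, whose matrix values it equals. The method behind the background and the constants is not given in the sources used here.

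Ratios were taken on log2 of the deposited normalized intensity where both arrays had a corrected intensity of 50 or more, averaging probes of the same name. Otherwise a bound was given. The fold mark was 2. The number of arrays limits the precision. The members and lists were chosen with earlier results of these data known. Named miRNAs were the members, the 4 most alike in pattern or up to 6 with the same arrays over the floor, listed markers, and arm pairs with gaps at least as large as that of miR-142. For CT-26 over control, miR-22 as the next gap was named after its value was seen. Members of the second list were also named after their values were seen. Alternatives used limma 3.58.1 and python 3.11.15. The ratio calculation was tested on simulated data. Centring on the array row was added after the data were seen.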

Additional observations from a re-analysis of the deposited data

Results flagged for a closer look

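miR-142-3p had log2 ratios to control of opposite sign in the co-cultures, 0.13 beside ID8 cells and -0.41 beside CT-26 cells. Each value rests on 1 array set against the same control array, so the difference was not tested. Relative to the median of its array row both values were above 0, at 0.30 and 0.37.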

How the results depend on the processing

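No paired analysis was possible because the labels give no replicate numbers and each group has 1 array, so leaving out a replicate was not possible either. With no replicate spread, a ratio was taken as moved when it shifted by over 1.5-fold. Of 123 member ratios under other settings, 112 stayed within that, and 16 of 18 arm gaps did. Another floor leaves a ratio unchanged where both readings are over it, so some of the 112 could not move. Scaled to U6-snRNA-2, miR-142-5p, miR-142-3p and miR-223 stood at log2 -0.10, -1.14 and -0.28 for ID8 over control. The authors' normalization gave 1.17, 0.13 and 0.99 there, so each value changed sign, that of miR-223 as a bound. For CT-26 over control they stood at 0.94, -1.48 and 0.20 when scaled to U6-snRNA-2. That probe was itself higher in both co-cultures. The medians of the PU.1-linked and the differentiation lists were then -0.62 and -0.57 for ID8 and 0.80 and -0.16 for CT-26. At a floor of 100 the bounds of miR-223 were -0.038 and 0.25, by construction. Raw intensity and normexp both gave a bound of 0.69 for miR-223 in CT-26 over control. Centred on the array row, miR-142-3p in CT-26 over control was 0.37 and the arm gap was 1.43, and -0.67 for ID8 over CT-26. At a floor of 200, 1 member had a ratio in each comparison with the control.

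The miRNAs at least 2-fold apart numbered 13, 32 and 15 for ID8 over control, CT-26 over control and ID8 over CT-26. They were 118 and 84 in the first and second under U6-snRNA-2 scaling. Floors of 100 and 200 gave 7 and 3 for ID8 over control, 19 and 14 for CT-26 over control, and a floor of 200 gave 9 for ID8 over CT-26. With no floor they were 95, 133 and 66. At 1.5-fold they were 27, 65 and 29, and at 4-fold 4, 5 and 2. Raw intensity gave 8 for ID8 over control. Higher calls made up 61.5%, 65.6% and 26.7% of these, against 75%, 68.8% and 43.8% without normalization, 87.5%, 78.9% and 35.7% when scaled to the mouse median, and 41.7%, 50% and 26.7% when scaled to the 75th percentile. Signals near the floor, such as that of miR-223 on the control array, limit what can be told.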

Other observations

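Array row 7 held many of the lower calls in CT-26 over control and all the higher calls in ID8 over CT-26. In CT-26 over control, 7 of 19 mouse probes of that row were at least 2-fold lower, against 4 of 140 in the other 7 rows. In ID8 over CT-26, 4 of 21 were at least 2-fold higher, against 0 of 156 elsewhere. Calls in the opposite direction, 21 higher and 11 lower in the same order of comparisons, all lay outside row 7. Among probes with no name in the table, 18 of 21 in row 7 were below 0 for CT-26 over control, with a median log2 ratio of -0.38. Row 8, that of miR-142-5p, had 10 of 13 unnamed probes below 0, with a median of -0.26, whereas its mouse probes had 0.21. In rows 1 to 6 the unnamed medians lay between -0.04 and 0.63. For ID8 over CT-26 the unnamed medians were 0.47 in row 7 and 0.39 in row 8. Centring used the medians of mouse probes only. The 5 Hy3 marker spots of that row had a median log2 raw ratio of -0.28 for CT-26 over control, against -0.09 in the other rows.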
